A study of Mus musculus with 2 samples.

Results

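SRCAP occupancy was examined at 10 genes that encode CTCF and the cohesin machinery, namely Ctcf, Rad21, Smc3, Stag1, Nipbl, Mau2, Wapl, Pds5a, Pds5b and Esco1. The genes were taken by symbol, with a rule that uses no measured value, from the 21938 protein-coding genes that GENCODE vM21 places on chromosomes 1 to 19, X and Y of the mouse build GRCm38. The choice of these 10 genes was nevertheless made with earlier results of these data known. A peak was assigned to a gene when its midpoint lay in a promoter window, from 1000 bp upstream to 500 bp downstream of any transcription start site (TSS) of the gene, elsewhere in the gene body, or within 20 kb of the gene. This assigned 31 of the 28718 peaks found with the GFP antibody and 17 of the 28167 peaks found with the SRCAP antibody.

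The peaks come from CUT&RUN, in which an antibody directs a nuclease to cut and release the DNA beneath its target. Both libraries were made from SYAT cells, a mouse embryonic stem cell (mESC) line derived from CGR8 in which both Srcap alleles carry a YPet-AID tag and which stably expresses OsTir1, so that the tagged SRCAP can be degraded with auxin. SRCAP is the catalytic subunit of the complex that places the histone variant H2A.Z into nucleosomes. One group is a library with an antibody against GFP, which is expected to bind the YPet tag, and the other is a library with an antibody against SRCAP itself. The line was routinely grown in serum, LIF, CHIR99021 and PD184352 and moved to serum and LIF ahead of experiments. Auxinole was added to limit basal degradation of SRCAP, and the labels do not say whether either library had received auxin. There was 1 library per antibody, from a single cell line, and untagged cells or a control antibody were not analysed here. No test between antibodies was therefore possible, and the intervals given are 95% Wilson intervals that cover counting error only. The depth of the libraries is unknown, because the lists give no read counts, so a gene without a peak is one where none was listed and not one shown to lack SRCAP.

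Cohesin is a ring-shaped complex that holds sister chromatids together and extrudes loops of DNA. Its ring is formed by SMC1 and SMC3, closed by the kleisin RAD21 and bound by STAG1 or STAG2. NIPBL and MAU2 form the loader that drives extrusion, WAPL releases cohesin from DNA together with the PDS5 proteins, and ESCO1 acetylates SMC3 and so stabilises the ring. CTCF is a zinc finger protein that stops the moving ring at its own binding sites, which places the borders of loops. These proteins act in nearly all dividing cells, mESCs included.

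The DNA beneath 8 of these peaks is shown first, because it holds the only CTCF consensus found in these peaks and the promoter segments on which the peak counts rest. The sequences were read from GRCm38.p6 on the strand of the gene, from the SRCAP list where both lists had the peak, and left out untranslated and coding exons. In the Ctcf sequence the capitals mark the match to the core CTCF consensus of 12 bases. In all other sequences the capitals mark CpG dinucleotides.
Ctcf, peak 13.9 kb upstream, chr8:105622514-105622813, + strand: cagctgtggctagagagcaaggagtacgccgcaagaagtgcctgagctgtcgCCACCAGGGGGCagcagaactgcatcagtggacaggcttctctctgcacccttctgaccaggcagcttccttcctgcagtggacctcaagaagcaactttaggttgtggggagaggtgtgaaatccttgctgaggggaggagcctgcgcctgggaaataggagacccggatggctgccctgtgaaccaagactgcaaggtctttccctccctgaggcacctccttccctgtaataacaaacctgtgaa
Rad21 promoter, chr15:51991955-51992254, - strand: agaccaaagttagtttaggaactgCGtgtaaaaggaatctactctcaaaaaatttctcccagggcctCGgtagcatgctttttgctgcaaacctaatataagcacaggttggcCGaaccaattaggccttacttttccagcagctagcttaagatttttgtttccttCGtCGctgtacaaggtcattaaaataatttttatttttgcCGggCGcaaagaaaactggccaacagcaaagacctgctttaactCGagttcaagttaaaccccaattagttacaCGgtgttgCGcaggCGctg
Smc3 promoter, chr19:53599870-53600034, + strand: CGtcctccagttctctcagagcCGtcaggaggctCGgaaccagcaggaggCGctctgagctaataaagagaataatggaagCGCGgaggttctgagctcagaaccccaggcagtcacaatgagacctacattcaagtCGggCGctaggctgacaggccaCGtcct
Stag1 first TSS, GFP list only, chr9:100597724-100597797, + strand: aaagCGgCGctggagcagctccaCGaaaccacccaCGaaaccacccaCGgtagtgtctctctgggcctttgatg
Stag1 internal TSS, chr9:100642790-100642984, + strand: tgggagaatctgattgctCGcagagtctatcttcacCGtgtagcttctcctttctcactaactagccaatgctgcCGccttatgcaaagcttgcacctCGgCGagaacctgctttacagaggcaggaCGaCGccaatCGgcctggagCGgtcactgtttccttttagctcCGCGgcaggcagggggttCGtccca
Wapl first TSS, chr14:34673500-34673708, + strand: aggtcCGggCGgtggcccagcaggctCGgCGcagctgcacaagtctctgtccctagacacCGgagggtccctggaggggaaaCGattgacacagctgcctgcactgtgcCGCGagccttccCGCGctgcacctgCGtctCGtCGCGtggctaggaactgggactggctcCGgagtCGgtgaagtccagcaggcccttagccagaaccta
Wapl internal TSS, chr14:34693991-34694290, + strand: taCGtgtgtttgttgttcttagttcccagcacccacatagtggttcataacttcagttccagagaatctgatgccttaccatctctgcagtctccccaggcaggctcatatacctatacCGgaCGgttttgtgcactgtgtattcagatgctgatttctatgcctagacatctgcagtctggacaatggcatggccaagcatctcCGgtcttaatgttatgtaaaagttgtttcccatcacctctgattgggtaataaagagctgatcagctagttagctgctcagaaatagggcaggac
Mau2 promoter, part between the Mau2 and Sugp1 TSSs, chr8:70042779-70042812, - strand: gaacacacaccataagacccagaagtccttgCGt
The segment at the first Wapl TSS held 7.66 CpG per 100 bases and that at the internal Wapl TSS held 1.33, so the CpG content of the peaks differed widely within a single gene.

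Peaks lay at the promoters of Rad21, Stag1, Wapl and Mau2 in both lists and at the promoter of Smc3 in the SRCAP list only. No promoter peak was listed with either antibody for Ctcf, Nipbl, Pds5a, Pds5b or Esco1. The GFP list thus had a promoter peak at 4 of 10 genes (40%, interval 16.8 to 68.7%), against 35.0% of all protein-coding genes. The SRCAP list had a promoter peak at 5 of 10 genes (50%, interval 23.7 to 76.3%), against 35.7% of all protein-coding genes. Both lists had one at 4 genes, against 27.0% of all genes, and either list had one at 5 genes, against 43.6% of all genes. Each of these background shares lay within the interval of the 10 genes, so with 10 genes the promoter counts could not be told from those of protein-coding genes as a whole. Among peaks that reached at least the median score, the GFP list had promoter peaks at Wapl and Mau2 alone and the SRCAP list at Rad21, Wapl and Mau2. No share over all protein-coding genes is given at this threshold, so the smaller counts are not a result about these genes.

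Peaks anywhere in the gene or its flanks were listed at 9 of 10 genes (90%, interval 59.6 to 98.2%), the exception being Nipbl, against 76.9% of all protein-coding genes. That background holds genes of all lengths, and peak counts rise with gene length. Of protein-coding genes at least as long as a given member, between 7.84% (Stag1) and 12.3% (Mau2) had no peak in either list. The count was thus not shown to differ from that of genes as long. The 31 GFP list peaks fell 6 at promoters, 9 in gene bodies and 16 in flanks, and the 17 SRCAP list peaks fell 6 at promoters, 1 in a gene body and 10 in flanks. The flank peaks belong in part to neighbouring genes, since 8 of the 16 in the GFP list and 4 of the 10 in the SRCAP list lay at the promoter of another gene. The number of promoter peaks was thus equal in both lists, and the larger GFP count came from gene bodies and flanks.

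**Figure D1:**
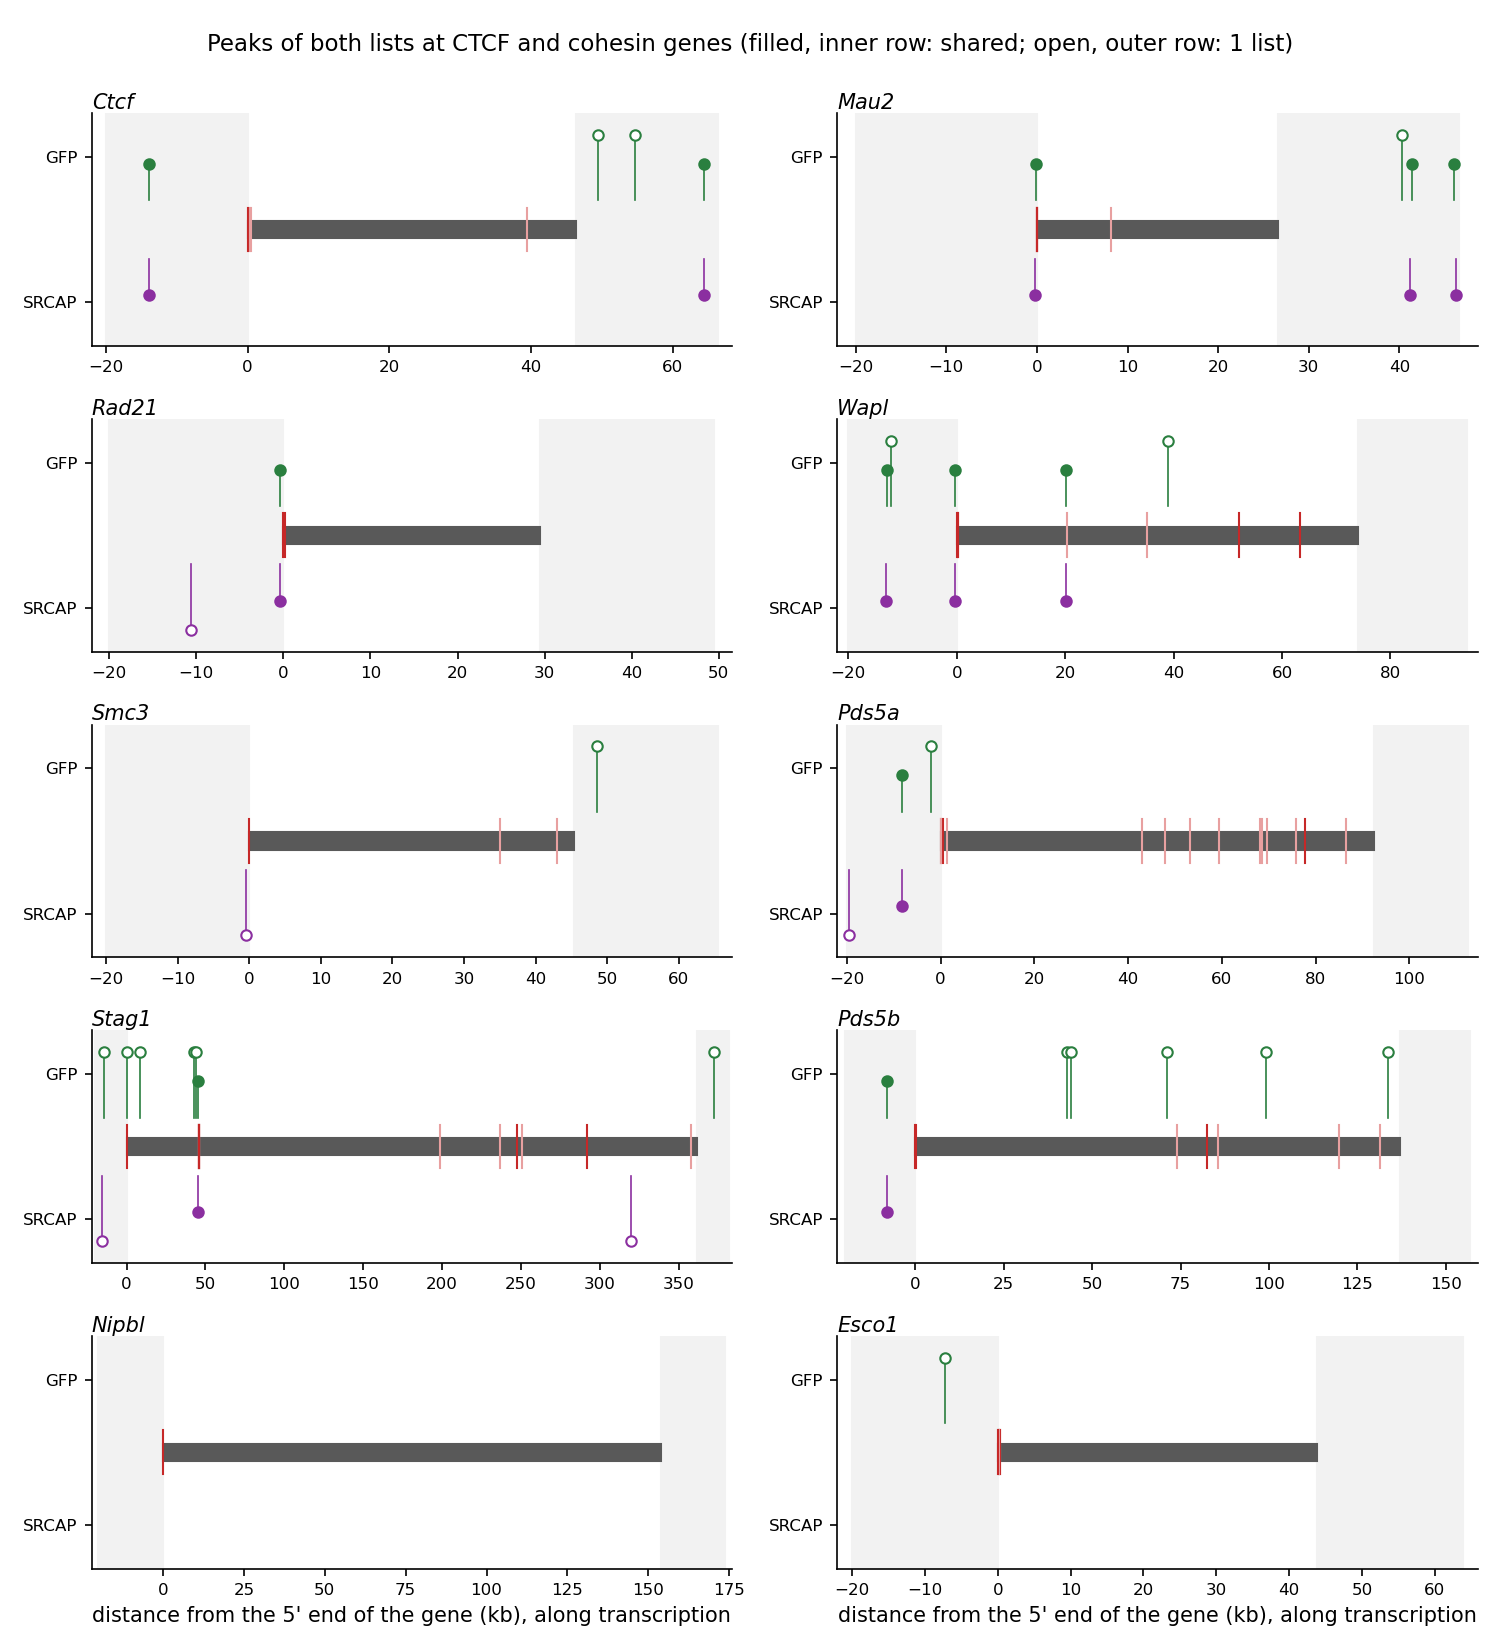
Peaks of the GFP list (green, above each gene) and of the SRCAP list (purple, below) at the 10 genes, by distance in kb of the peak midpoint from the 5′ end of the gene along the direction of transcription, with a scale of its own for each gene. The bar is the gene, red ticks are TSSs of coding transcripts, pale red ticks are TSSs of other transcripts, grey areas are the 20 kb flanks, filled points in the inner row overlap a peak of the other list and open points in the outer row do not. All 5 peaks inside Pds5b were open and green, while Nipbl had no point.

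Ctcf lay at chr8:105636568-105682922 on the plus strand and had 4 GFP list peaks and 2 SRCAP list peaks, all of them in the flanks. The nearest peaks upstream were a shared pair 13.9 kb from the first TSS, at chr8:105622381-105623008 in the GFP list with a score of 76 and at chr8:105622467-105622861 in the SRCAP list with a score of 121. The score is a whole number that the peak caller gave each peak, its meaning was not stated, and its place within its own list is therefore given in addition: 77.0% of the GFP list and 90.7% of the SRCAP list scored lower than this pair. The annotation places the pair in an intron of a long transcript of Agrp. It held the core CTCF consensus printed above, within 300 bp at the midpoint of both peaks, and no other peak assigned to the 10 genes held that consensus. This was 1 of 31 peaks in the GFP list (3.23%, against 3.02% of all its peaks) and 1 of 17 in the SRCAP list (5.88%, against 4.52%), so the share here was close to that in the lists at large.

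Downstream of Ctcf, a shared pair at the Acd and Pard6a promoters scored 34 (GFP list) and 171 (SRCAP list). These values stood above 25.9% and 96.2% of their lists, and the pair thus ranked low in the GFP list and high in the SRCAP list. Both remaining GFP list peaks, with scores of 24 and 29, lay at Carmil2 promoters and had no SRCAP list partner. The span between the midpoints of the peaks closest to either side of the Ctcf gene was 63.3 kb in the GFP list and 78.3 kb in the SRCAP list.

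Of the genes of the ring, Rad21 at chr15:51962240-51991747 on the minus strand had the plainest pattern, a shared pair upstream of its TSS. The GFP list peak, chr15:51991923-51992376, scored 46 with its midpoint 403 bp upstream, and the SRCAP list peak, chr15:51991838-51992372, scored 69 with its midpoint 358 bp upstream. They ranked above 47.5% and 71.8% of their lists and overlapped over 450 bp. The only other peak was in the SRCAP list, 10.6 kb upstream, with a score of 28. On the side of the 3′ end the next peak lay 84.9 kb from the gene in the GFP list and 84.8 kb away in the SRCAP list.

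Smc3 at chr19:53600398-53645833 on the plus strand had 1 peak in each list, and these did not meet. The SRCAP list peak, chr19:53599870-53600034, had a score of 34 and its midpoint 446 bp upstream of the Smc3 TSS, in the stretch towards AC137853.1, whose opposite TSS lay 987 bp upstream. The GFP list peak, chr19:53648906-53649209, had a score of 35 and lay 3.23 kb beyond the 3′ end of the gene. Smc3 was the only one of the 10 genes with a promoter peak in 1 list alone, and its score stood above 28.0% of the SRCAP list.

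Stag1 at chr9:100597798-100959375 on the plus strand is the longest of the 10 genes, at 361.6 kb, and had 7 GFP list peaks and 3 SRCAP list peaks. At its first TSS only the GFP list had a peak, chr9:100597724-100597930, with a score of 39 and its midpoint 29 bp downstream, in the 5′ untranslated region. At a cluster of internal TSSs, the first of them a coding one at position 100643448, the lists shared a pair with scores of 28 (GFP list) and 20 (SRCAP list) and midpoints 630 and 561 bp upstream. Both values were low in their lists, above 14.2% and 6.78% of the peaks. The intronic GFP list peaks scored 50, 19 and 43, the intronic SRCAP list peak scored 47, and none of these had a partner. In the flanks the GFP list had peaks 14.5 kb upstream and 10.5 kb downstream of the gene, with scores of 28 and 46, and the SRCAP list had one 15.6 kb upstream with a score of 34, again without partners.

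The loader genes stood at opposite ends. Nipbl, at chr15:8290617-8444463 on the minus strand, had no peak in the gene or its flanks. The nearest GFP list peak lay 24.9 kb upstream of the TSS with a score of 28, and the nearest SRCAP list peaks lay 124.5 kb upstream and 121.8 kb beyond the 3′ end. The midpoints of the peaks on either side of Nipbl were 300.6 kb apart in the GFP list and 400.1 kb apart in the SRCAP list. Such an absence was not rare for a gene of this size, since 136 of the 1428 protein-coding genes at least as long as Nipbl (9.52%) had no peak in either list.

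Mau2, the partner of Nipbl in the loader, had the strongest promoter peaks of the 10 genes. It lies at chr8:70016123-70042734 on the minus strand and faces Sugp1, which encodes a protein with splicing factor domains and whose TSS is 79 bp away in the opposite direction. The GFP list peak, chr8:70042735-70043034, scored 227 and ranked above 98.2% of its list, and the SRCAP list peak, chr8:70042721-70043136, scored 185 and ranked above 96.9% of its list. Both peaks covered the whole gap, and their midpoints, 151 and 195 bp upstream of the Mau2 TSS, lay in an untranslated region of Sugp1. They also lay in the Sugp1 promoter window, so neither peak could be given to Mau2 alone. Beyond the 3′ end, the lists shared a pair at the Gatad2a promoter with scores of 136 and 210 and a further pair with scores of 125 and 64, and the GFP list had a lone peak with a score of 38. At 6.00 GFP list peaks and 4.50 SRCAP list peaks per 100 kb, Mau2 exceeded 86.6% and 80.5% of protein-coding genes.

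Mau2 and Ctcf are both on chromosome 8, where peaks were denser in both libraries. The GFP list had 1.97 peaks per 100 kb on chromosome 8 against 1.10 on the other autosomes, and the SRCAP list had 2.29 against 1.07. Promoter peaks were listed for 49.2% (GFP list) and 51.3% (SRCAP list) of the 1040 protein-coding genes on this chromosome. The part of this density in the values at Mau2 and Ctcf was not tested. Ctcf had no promoter peak in spite of it.

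**Figure D2:**
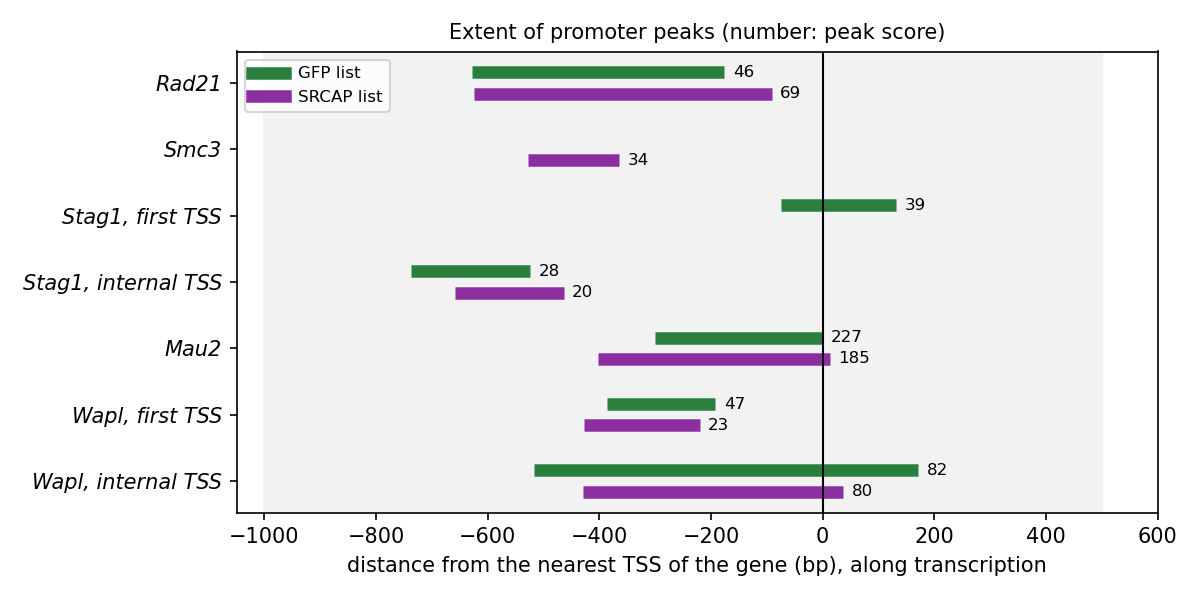
Extent of the 12 promoter peaks relative to the nearest TSS of their gene, in bp along the direction of transcription, with GFP list peaks in green, SRCAP list peaks in purple and the score beside each bar. The grey area is the promoter window from 1000 bp upstream to 500 bp downstream, and all midpoints but that at the first Stag1 TSS, 29 bp downstream, lay upstream of the TSS.

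Among the genes that release or regulate cohesin, Wapl at chr14:34673928-34747983 on the plus strand had promoter peaks at its first TSS and at an internal TSS. At the first TSS the shared pair scored 47 (GFP list) and 23 (SRCAP list), with midpoints 289 and 324 bp upstream, on the side of the divergent noncoding gene 5830448L01Rik, whose TSS is 165 bp away. At an internal TSS, 20.4 kb into the gene, which the annotation gives to a transcript without a coding sequence, the shared pair scored 82 and 80, with midpoints 173 and 196 bp upstream. The internal pair thus ranked above 80.4% and 77.5% of its lists, and the pair at the first TSS above 48.7% and 8.04%. The internal pair was also the CpG-poor one, with an observed over expected CpG ratio of 0.151 and 0.150 in 500 bp, against 0.925 and 0.887 at the first TSS. Repeats covered 37.2% and 49.0% of the internal peaks and none of those at the first TSS. Wapl further had a shared pair with scores of 23 and 29 and a lone GFP list peak with a score of 23 at Gm49024, and an intronic GFP list peak with a score of 45. No promoter peak lay at the internal TSSs further into the gene, coding ones among them.

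Pds5a, at chr5:65605721-65698273 on the minus strand, had peaks only upstream of its first TSS. The closest was a GFP list peak with a score of 42 that lay 2024 bp upstream, outside the promoter window, and windows of 2500 bp on either side would have counted it. A shared pair 8.16 and 8.19 kb upstream scored 37 and 40, and the SRCAP list had a lone peak with a score of 29 at 19.6 kb, just inside the limit of 20 kb. The next peaks beyond that limit lay 20.2 kb away in the SRCAP list, with a score of 34, and 20.3 kb away in the GFP list, with a score of 69. No peak of either list lay inside the 92.6 kb of the gene.

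Pds5b, at chr5:150673739-150810690 on the plus strand, showed the opposite arrangement, with 5 peaks in its introns. All 5 were in the GFP list only, with scores of 17, 73, 24, 19 and 35 along the gene, and the SRCAP list had no peak inside it. The one shared pair lay 7.94 and 7.97 kb upstream at a promoter of N4bp2l2, with scores of 284 and 267, the highest values assigned to any of the 10 genes. Pds5b thus had 6 GFP list peaks against 1 in the SRCAP list. A surplus of at least 5 GFP list peaks occurred at 89 of the 21938 protein-coding genes (0.406%). That share is over genes of all lengths, and Pds5b had the largest surplus of the 10 genes. No such share is given for the 1656 protein-coding genes at least as long as Pds5b, so the value does not show how rare its surplus is. The GFP list peak nearest to the promoter window lay 2052 bp downstream of an internal noncoding TSS, and the first TSS had none.

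Esco1, at chr18:10566507-10610352 on the minus strand, had a single assigned peak. It was in the GFP list only, with a score of 51, 7.23 kb upstream at the promoter of Snrpd1, which encodes a core spliceosomal protein. In the SRCAP list the nearest peaks lay 62.8 kb beyond the 3′ end and 216.7 kb upstream. Esco1 and Nipbl were the only genes among the 10 without any SRCAP list peak.

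Sharing between the lists is given by the place of a peak, without a test of the difference between places. An overlap of at least 1 bp with the other list made a peak shared. Of the 31 GFP list peaks 12 were shared (38.7%, interval 23.7 to 56.2%), against 56.2% of the whole list. Of the 17 SRCAP list peaks 12 were shared (70.6%, interval 46.9 to 86.7%), against 57.7% of the whole list. At promoters of any gene 9 of 14 GFP list peaks (64.3%, interval 38.8 to 83.7%, against 67.5%) and 9 of 10 SRCAP list peaks (90%, interval 59.6 to 98.2%, against 67.5%) were shared. Away from promoters 3 of 17 GFP list peaks (17.6%, interval 6.19 to 41.0%, against 51.3%) and 3 of 7 SRCAP list peaks (42.9%, interval 15.8 to 75.0%, against 53.2%) were shared. The intervals at and away from promoters overlapped in each list. Most of the 17 GFP list peaks away from promoters lay at Stag1 and Pds5b, and none of those was shared. The interval treats peaks as independent, which peaks of the same gene are not, so the low share is not a result about the 10 genes as a set.

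The unshared GFP list peaks included all 9 that lay in introns of Stag1, Wapl and Pds5b outside the promoter windows. The GFP list peaks at internal TSSs of Stag1 and Wapl also lay in introns and were shared. No peak of these 9 was shared, which allows a share of up to 29.9% by the Wilson interval. Over all protein-coding gene bodies, away from promoters, 48.7% of 9132 GFP list peaks were shared, and 40.6% of the 7337 with scores in the same range, 17 to 73, were. The 9 peaks had a median GC content of 41.4% and a CpG ratio of 0.152 in 500 bp, against 48.2% and 0.234 for those 9132 peaks. Because 5 of the 9 lay in Pds5b and 3 in Stag1, they are not independent observations of cohesin genes.

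**Figure D3:**
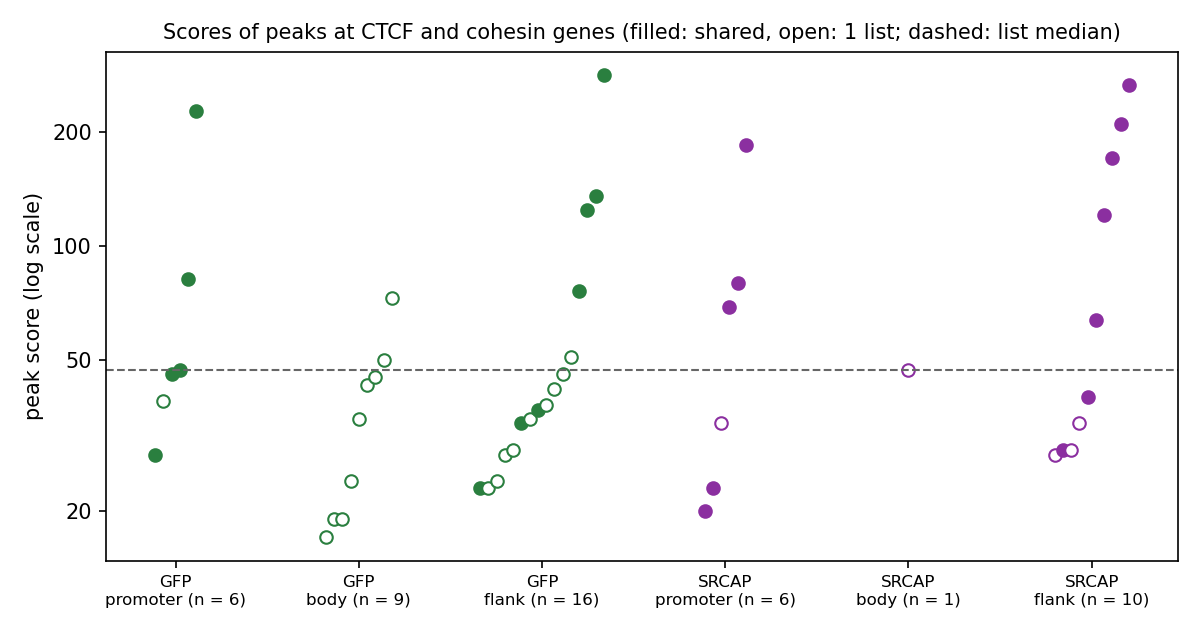
Scores of the assigned peaks on a log scale, by list and by place relative to the gene, with 1 point per peak and the number of peaks below each group. Filled points are shared with the other list and open points are not, the dashed line is the median score of 47 in either list, and the 9 GFP list peaks in gene bodies are all open, with scores from 17 to 73.

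Among the assigned peaks, shared peaks had higher median scores than peaks of a single list. Medians of the whole lists by sharing are not given, so this is not shown to be particular to these genes. The median GFP list score was 61.5 for the 12 shared peaks and 35 for the 19 others. The median SRCAP list score was 74.5 for the 12 shared peaks and 34 for the 5 others. Over all assigned peaks the medians were 39 and 47, against 47 in both whole lists. At the promoters of the 10 genes the medians were 46.5 (GFP list) and 51.5 (SRCAP list), each over 6 peaks, against 53 and 54 for all peaks at protein-coding promoters. The midpoints of the 12 shared pairs were a median of 40 bp apart, against 56 bp over all 16316 pairs.

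Peak density over the genes and their flanks varied from none at Nipbl to the values at Mau2. Summed over 1410.7 kb it was 2.20 GFP list peaks and 1.21 SRCAP list peaks per 100 kb. The median of the 10 genes was 1.63 and 1.34, against 1.91 and 1.88 for all protein-coding genes, and 6 of the 10 genes lay below that median in each list. More GFP than SRCAP list peaks were assigned at 6 of the 10 genes, against 28.4% of all protein-coding genes. Fewer were assigned at Rad21 alone, against 24.98% of all protein-coding genes. That background was not matched for gene length and includes the 23.1% of genes with no peak in either list. Neither difference was tested. Stag1 and Pds5b, the loci with most GFP list peaks, decided much of the count, since 18 GFP and 13 SRCAP list peaks remained without them.

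**Figure D4:**
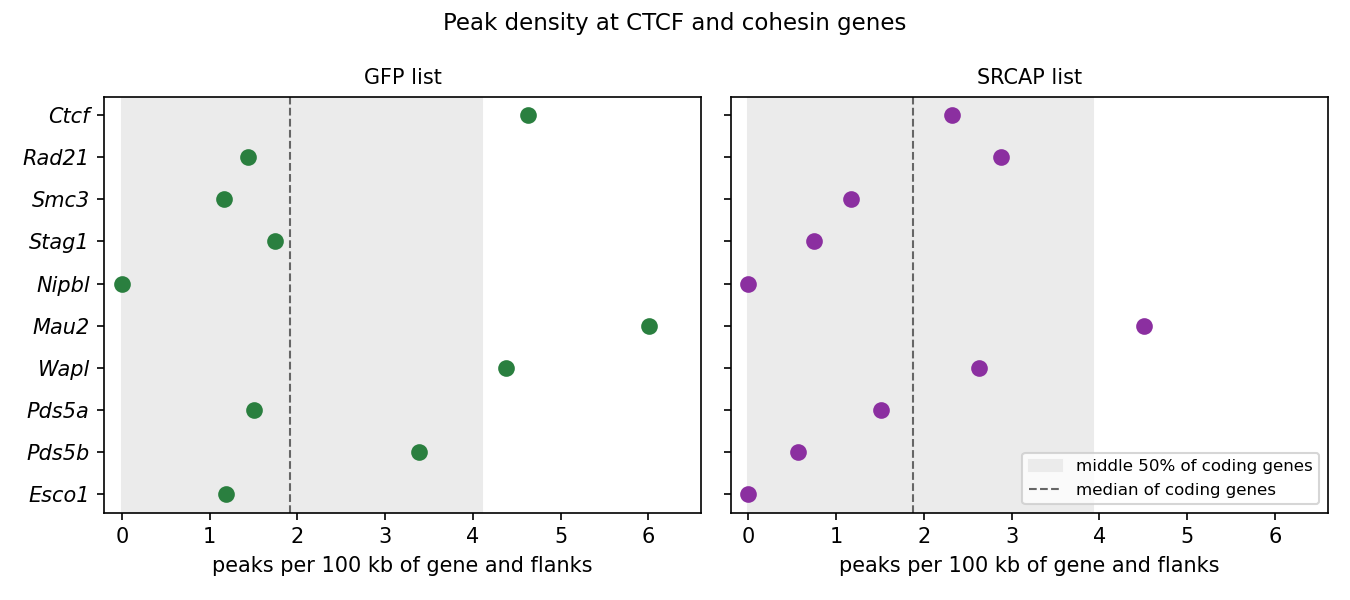
Peaks per 100 kb of gene and 20 kb flanks at each of the 10 genes in the GFP list (left) and in the SRCAP list (right). The dashed line is the median of all protein-coding genes, 1.91 and 1.88, the grey area holds the middle 50% of them, and only Mau2 lay above that area in both panels.

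The promoters that could be matched to a sequence entry were nearly all rich in CpG, with and without a peak. RefSeq promoter entries of GRCm38.p6, from 250 bases before to 50 after the gene start, were matched by symbol for 7 of the 10 genes. No entry was matched for Rad21, Nipbl or Esco1. The main entries had CpG ratios of 0.908 to 1.16, against a median of 0.384 over all 32851 entries. Ctcf had the highest, 1.16, above 99.1% of all entries, and Pds5a followed with 1.14, and neither overlapped a peak, while Wapl with 1.09 and Mau2 with 0.908 overlapped peaks of both lists. Among all 4166 entries with a ratio of at least 0.9, 32.5% overlapped a GFP list peak and 36.4% an SRCAP list peak, against 16.5% and 17.0% of the 28685 entries below that ratio. Of the 7 such entries of these genes, 2 overlapped a peak in each list. The entries are shorter than the promoter windows, and those of Smc3 and Stag1 overlapped no peak although peaks lay in their promoter windows. A second entry of Mau2 had a ratio of 0.0739 and overlapped no peak.

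**Figure D5:**
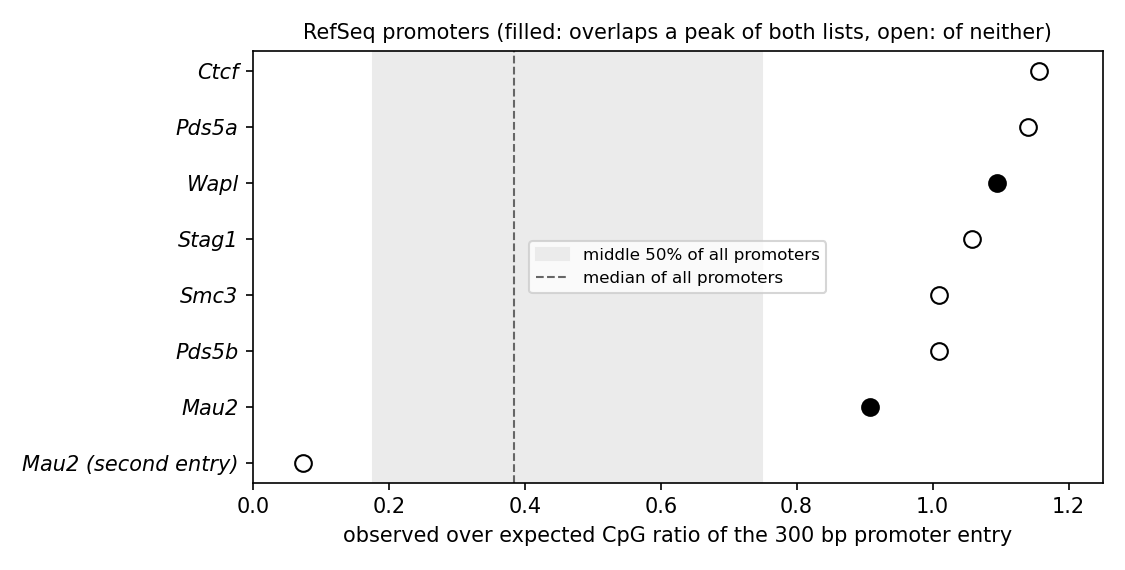
Observed over expected CpG ratio of the RefSeq promoter entries of 7 genes, with both entries of Mau2, against the median (dashed, 0.384) and the middle 50% (grey) of all 32851 entries. Filled points overlap a peak of both lists and open points a peak of neither, and the open points of Ctcf (1.16) and Pds5a (1.14) lay to the right of the filled points of Wapl (1.09) and Mau2 (0.908).

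Exact matches to factor consensus sequences were few in the promoter entries. Searched on both strands were GCGCATGCG for NRF1, CTACAATTC for ZNF143, AAGATGGC for YY1, CCGGAAGT for ETS factors, GGGGCGGGG for SP/KLF factors, CACGTG for E-box factors, and the core CTCF consensus by name. The main Mau2 entry held the SP/KLF sequence, which 11.4% of all entries held, and the second Mau2 entry held the E-box, which 7.15% of all entries held. The entries of Ctcf, Smc3, Stag1, Wapl, Pds5a and Pds5b held none of the 7.

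The other genes of the cohesin pathway, a list of 12, are given as counts without a test. A promoter peak was listed for 7 of them in the GFP list (58.3%, interval 32.0 to 80.7%, against 35.0% of all protein-coding genes) and for 6 in the SRCAP list (50%, interval 25.4 to 74.6%, against 35.7%). These included Esco2, the acetyltransferase of S phase, Cdca5, which encodes the WAPL antagonist sororin, Espl1, which encodes separase, and Sgo1, which protects centromeric cohesin. Of the meiotic subunits, Rec8 and Stag3 had a peak in both lists, Smc1b had one in the GFP list only, and Rad21l had none. The ring gene Smc1a, the STAG1 paralogue Stag2 and Hdac8, the deacetylase of SMC3, had none in either list, as had Pttg1, which encodes securin. Smc1a, Stag2 and Hdac8 are all on chromosome X, where promoter peaks were listed for 13.6% (GFP list) and 9.49% (SRCAP list) of 948 protein-coding genes, and the part of the chromosome in their absence was not tested.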

How the data were processed

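CUT&RUN was performed in SYAT mESCs with a GFP antibody (1 library) and an SRCAP antibody (1 library). Fixation of 100000 cells in 0.1% formaldehyde took 5 min, the antibodies were used at a 50-fold dilution, and paired reads of 75 nt were obtained from inserts of 250 bp, per the labels. Among its chromatin assays the study describes the GFP antibody under CUT&Tag and not under CUT&RUN, so the assay of that library is taken from its labels. Each library has a list of peaks deposited by the authors, with a whole-number score per peak. Peak names carry the name of MACS2, and the submitters' processing notes also name STAR, Picard, mm10 and dm6, without roles or versions. For ChIP-seq and CUT&Tag the study describes MACS2 calling with ENCODE blacklisted regions left out, and its reporting summary gives an input control. Whether this held for CUT&RUN was not given in the sources used here, and calling without a matched control can list regions of high read density as peaks. The minimum score, 13 in both lists, equals 10 times -log10 of 0.05 cut to a whole number. All peak ends lay within GRCm38.

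Peaks were placed at their midpoint and assigned as described, with 141767 GENCODE vM21 transcripts. Overlaps were computed in Python 3.11.15 (numpy 2.4.6, pandas 2.3.3) and checked against bedtools 2.31.1. GC content, the CpG ratio (500 bp) and motifs (300 bp) were computed at the midpoint with pysam 0.24.0, Wilson intervals with scipy 1.17.1 and plots with matplotlib 3.10.9. The code was tested on simulated data. All 10 genes were named, with every peak assigned to them. The genes and lists were chosen with earlier results of these data known. Alternatives varied the windows, flanks, overlap rule, score threshold, TSS set and placement. The lists have 0 unused columns of per-sample values.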

Additional observations from a re-analysis of the deposited data

How the results depend on the processing

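Of 54 alternative values, 30 were counted as within the limits set and 24 as moved. The limits were 1.5-fold for a count, the Wilson interval for a share and 5% for a median. None was counted as reversed, but only the distances to the TSS carry a sign. The other values had no direction to change, so this does not show that they are robust. With peaks at or above the median score, promoter peaks were at 2 genes in the GFP list, 3 in the SRCAP list and 2 in both, 10 and 9 peaks were assigned (0.709 and 0.638 per 100 kb), 60% of the GFP list peaks were shared with both lists shortened and 70% and 88.9% when compared with the full lists, and the medians were 51.3% and 54.8% for GC content and 0.502 and 0.681 for the CpG ratio. Flanks of 50 kb gave 54 and 35 peaks, and flanks of 10 kb gave 9 SRCAP list peaks (0.743 per 100 kb). Windows of 200 bp gave median CpG ratios of 0.369 (GFP list) and 0.519 (SRCAP list) and a median GC content of 48.5% (SRCAP list). With TSSs of coding transcripts only, the median distance of promoter peaks was -289 bp (GFP list) and -358 bp (SRCAP list). The SRCAP list value was counted among the 24 that moved, although its change from -341 bp lies just under the limit of 5%. Without Stag1 and Pds5b, an alternative chosen after seeing the data, 18 GFP list peaks were assigned. No paired analysis was possible because there were only 2 libraries, 1 per antibody. The unknown depth of the libraries limits any statement on genes without a peak. For the promoter counts at or above the median score, no share over all protein-coding genes is given for comparison. Shared percentages, GC contents and CpG ratios of the whole lists are not given at that threshold either. The values there are therefore not to be set against those of the full lists.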

Other observations

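Promoter peaks at relatives of cohesin are given as counts without a test. Of 14 genes of condensin, which compacts mitotic chromosomes, and of the SMC5/6 complex, which acts in DNA repair, 8 had one in the GFP list (57.1%, interval 32.6 to 78.6%, against 35.0% of all protein-coding genes) and 11 in the SRCAP list (78.6%, interval 52.4 to 92.4%, against 35.7%). The background share lay inside the GFP list interval and below the SRCAP list interval, which covers counting error only. The list was chosen with earlier results of these data known, and no adjustment was made for the several lists compared. The core condensin genes Smc4, Ncapd2, Ncapg and Ncaph were among those with a peak in both lists, Smc2 had one in the SRCAP list only, and Ncaph2 and Nsmce2 had one in neither. The intervals of the 10 CTCF and cohesin genes, 16.8 to 68.7% and 23.7 to 76.3%, overlap these.

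Of 9 genes for the CTCF paralogue Ctcfl and for proteins that work beside CTCF, 3 had one in the GFP list (33.3%, interval 12.1 to 64.6%, against 35.0%) and 6 in the SRCAP list (66.7%, interval 35.4 to 87.9%, against 35.7%). Chd8, Top2a and Top2b had one in both lists, and Adnp, Maz and Zfp143 had one in the SRCAP list only. Ctcfl, which is expressed mainly in the germ line, Ldb1 and Yy1 had none in either list, as had Ctcf itself.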
